A study of Mus musculus with 2 samples.

Results

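The nuclear genes of the mitochondrial respiratory chain and ATP synthase were followed in embryonic mouse liver. They were chosen by name: protein-coding genes whose symbols begin with Nduf (letter classes a, ab, b, c, s and v followed by a digit), Sdh (Sdha to Sdhd), Uqcr, Cox4 to Cox8 or Atp5. This rule gave 85 of the 43346 genes in the tables, among 21474 protein-coding genes, and used no measured value. By symbol, 38 belong to complex I, 4 to complex II, 8 to complex III, 18 to complex IV and 17 to complex V. A second annotated entry named Atp5o was not used here.

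Total RNA longer than 200 nt was sequenced from whole liver of healthy B6NCrl mouse embryos at embryonic day 15.5. There was 1 group, with 2 libraries that the labels give as biological replicates. Replicate 1 came from 78 embryos and replicate 2 from 62 embryos, and each pool held male and female embryos. The RNA input was 10 ng for each library, and synthetic RNAs were spiked in. The libraries held 34820426 and 45117192 expected counts in replicates 1 and 2, of which spike-ins made up 2.24% and 2.03%. The design has no treated, mutant or untreated group, so genes are set beside each other within the tissue, and replicate 2 is set beside replicate 1 with no p-value. Levels are in TPM, transcripts out of 1000000 after correction for their length, computed without the spike-ins. The liver labels were checked against marker genes: 6 hepatocyte genes summed to 43216 TPM in replicate 1 and 33569 TPM in replicate 2, and 7 erythroid genes to 383189 and 391420 TPM. RNA of both lineages was thus measured together, and in such bulk samples fewer cells of a type and less RNA per cell cannot be told apart.

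The respiratory chain sits in the inner mitochondrial membrane. Complexes I and II feed electrons from NADH and succinate into coenzyme Q, complex III passes them to cytochrome c and complex IV to oxygen. Complexes I, III and IV pump protons, and complex V, the ATP synthase, uses the returning protons to make ATP. Most subunits are encoded in the nucleus and imported, while a small set of core subunits is encoded by mitochondrial DNA. Complex II has no mitochondrially encoded subunit. Some complex IV subunits have isoforms typical of heart and skeletal muscle, lung or testis, which take the place of the forms found in liver.

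The 85 genes together held 2.10 ± 0.091% of all TPM (SD, n = 2). Their sum was 20313 TPM in replicate 1 and 21604 TPM in replicate 2. At 100 TPM or more in both libraries stood 66 members, which is 77.6% of the 85. Of the 11403 protein-coding genes with at least 1 TPM in each library, 8.17% reached that level, as did 4.34% of all 21474 protein-coding genes. A level of at least 1 TPM in both was found for 82 members, against 53.1% of protein-coding genes. Another 2 members, Ndufb5 and Atp5l, passed 100 TPM in replicate 2 alone. A mean between 10 and 100 TPM was found for 10 members and a mean below 10 TPM for 7. The members were thus mostly abundant messages, and 6 of the 7 weakest were alternative isoforms of complex IV. The members lie on 19 chromosomes, with the most, 9, on chromosome 7.

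**Figure D1:**
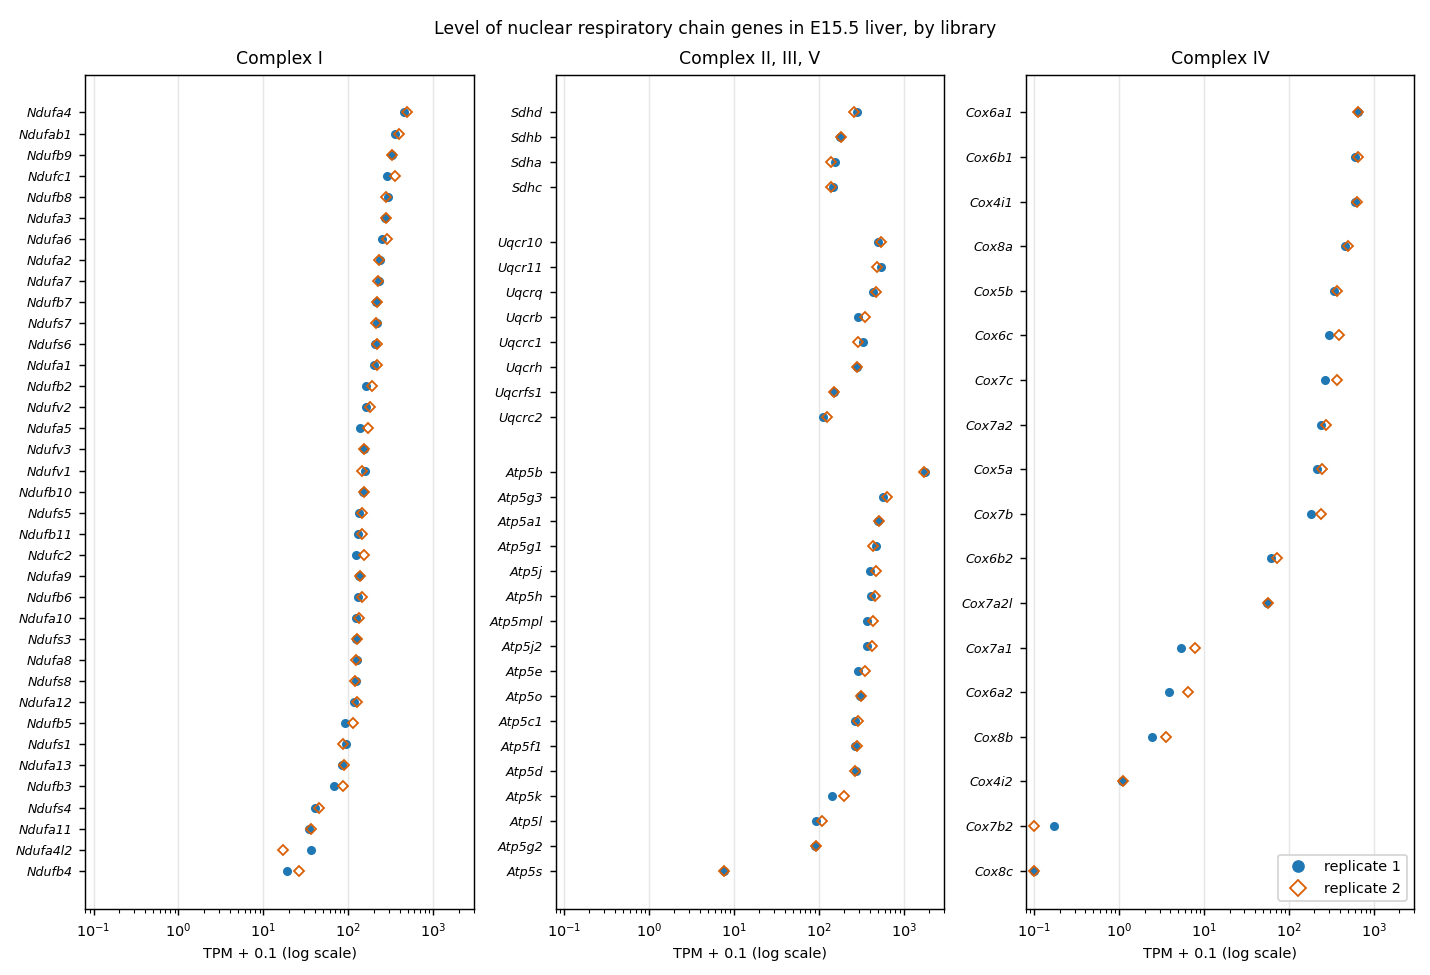
TPM + 0.1 of the respiratory chain genes on a log axis, with a row per gene, grouped by complex and sorted by mean; filled circles are replicate 1 and open diamonds replicate 2. The symbols of a gene mostly touch, Atp5b lies highest, Ndufa4l2 shows the widest gap and complex IV has the most genes below 10 TPM.

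The complexes differed in the level of their typical subunit gene. The median over subunit genes was 329 ± 32.8 TPM for complex V, 315 ± 7.69 TPM for complex III, 221 ± 30.5 TPM for complex IV, 164 ± 3.85 TPM for complex II and 142 ± 8.84 TPM for complex I (SD, n = 2). Complexes V and III did not differ beyond this spread, and their order turned round in replicate 1 alone, with 306 TPM for V and 309 TPM for III. The summed TPM was 6834 ± 282 for complex V and 6501 ± 269 for complex I, which has more than double the number of genes. Complex IV summed to 4212 ± 347 TPM, complex III to 2668 ± 45.3 TPM and complex II to 744 ± 30.0 TPM. Levels were most even within complex II, where the SD over genes was 33.8% and 32.4% of the mean in replicates 1 and 2. In complex IV it was 103% and 98.2% of the mean.

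Complex I oxidises NADH. Its most abundant symbol-matched gene was Ndufa4, at 451 TPM in replicate 1 and 487 TPM in replicate 2, whose protein is now placed in complex IV. The next were Ndufab1, the mitochondrial acyl carrier protein, with 356 and 396 TPM, Ndufb9 with 324 and 330 TPM and Ndufc1 with 286 and 357 TPM, all accessory subunits. Of the catalytic core, which carries the flavin and iron-sulfur centres, Ndufs7 had 218 and 211 TPM and Ndufs1, the largest core subunit, 92.9 and 87.1 TPM, a ratio of 2.39 ± 0.047 (SD, n = 2). Ndufb4 had the lowest mean in complex I with 19.0 and 26.2 TPM in replicates 1 and 2, though Ndufa4l2 was lower in replicate 2 with 16.9 TPM. The Ndufb4 level is a value that depends on a processed copy of the gene described further on.

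Complex II, succinate dehydrogenase, also works in the citric acid cycle. Its flavoprotein gene Sdha was at 155 and 140 TPM in replicates 1 and 2, and its iron-sulfur gene Sdhb at 178 and 182 TPM. Of the membrane anchors, Sdhd had 287 and 263 TPM and Sdhc 147 and 138 TPM. Sdhd exceeded Sdhc 1.93 ± 0.035-fold, while Sdhb and Sdha were within 1.22 ± 0.10-fold of each other (SD, n = 2).

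Complex III passes electrons from coenzyme Q to cytochrome c. Its 5 small subunit genes made up most of its message, with a sum of 2085 ± 61.5 TPM. The leading ones were Uqcr10 with 496 and 537 TPM in replicates 1 and 2, Uqcr11 with 538 and 487 TPM and Uqcrq with 438 and 474 TPM, and the order of Uqcr10 and Uqcr11 differed between the libraries. Uqcrb had 288 and 347 TPM, the largest difference between libraries in this complex. The core protein Uqcrc1 stood at 330 and 294 TPM, 2.65 ± 0.42-fold above its partner Uqcrc2 with 111.9 and 124.7 TPM. The Rieske iron-sulfur protein Uqcrfs1 was at 152 and 153 TPM, which puts it with Uqcrc2 at the low end of the complex.

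Complex IV, cytochrome c oxidase, reduces oxygen. Its highest genes were Cox6a1 with 651 and 647 TPM in replicates 1 and 2, Cox6b1 with 593 and 651 TPM, Cox4i1 with 597 and 626 TPM and Cox8a with 453 and 499.9 TPM. These were the forms typical of liver, and 10 of the 18 members stood above 180 TPM in both libraries. The other 8 were Cox7a2l, which acts in supercomplex assembly, and 7 isoforms typical of other tissues.

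Complex V makes ATP. Atp5b, the catalytic beta subunit (chr10:128083273-128090391, GRCm38), had 1783 TPM in replicate 1 and 1724 TPM in replicate 2 and was the most abundant of the 85, ranking 27 among protein-coding genes. Its partner in the head, the alpha subunit Atp5a1, had 505 and 509 TPM. The head holds equal numbers of alpha and beta subunits. The beta to alpha ratio was 3.46 ± 0.10 in TPM but 2.10 and 2.06 in expected counts. TPM divides by mean transcript length, in replicate 1 2267 nt for Atp5a1 and 1388 nt for Atp5b. The gamma subunit Atp5c1, present once per head, was at 271 and 290 TPM, 6.26 ± 0.45-fold below Atp5b. Both ratios take all transcripts of a gene. Of the Atp5b TPM, 31.7% lay in Atp5b-206, of 478 nt and without a coding sequence, and 63.5% in the coding Atp5b-201, of 1916 nt. The coding Atp5a1-201 held 86.2% of Atp5a1. Ratios of the coding forms alone were not computed. Head and central stalk genes together summed to 3135 ± 12.6 TPM, the peripheral stalk genes to 1471 ± 109 TPM and the small membrane subunits to 1072 ± 132 TPM. These sums also take all transcripts. In the peripheral stalk, 75.5% of Atp5j lay in the retained-intron Atp5j-208, and 67.6% of Atp5f1 in a form annotated as subject to nonsense-mediated decay. Coding transcripts led Atp5h and Atp5o, with 79.3% and 90.6%. Atp5s, whose product is a coupling factor and no structural subunit, was the lowest with 7.55 and 7.67 TPM.

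The c ring of complex V turns in the membrane and is built from 1 mature protein that several genes encode with different import signals. Atp5g3 had 565 and 635 TPM in replicates 1 and 2, Atp5g1 472 and 440 TPM and Atp5g2 90.8 and 92.5 TPM. They gave 52.3 ± 3.05%, 39.8 ± 2.96% and 7.99 ± 0.091% of the c ring message, in a sum of 1147 ± 28.0 TPM. The same order held in both libraries with reads assigned to processed copies left out. With its copy Gm10039 added, Atp5g1 stood at 577 TPM in replicate 1, above Atp5g3, and at 572 TPM in replicate 2, below it. With its copy Gm10175 added, Atp5g2 had 199 ± 17.8 TPM, against 91.7 ± 1.19 TPM without it. Such sums add TPM computed over unlike lengths. Gm10039 has 411 bases and Atp5g1 615 and 617 nt in replicates 1 and 2, so the sum would be lower over the length of Atp5g1. Whether the order in replicate 1 would then still change was not tested.

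The isoforms typical of other tissues were low beside their liver partners, with Cox6b2 as the exception. Cox4i2, typical of lung, stood at 0.974 and 1.02 TPM in replicates 1 and 2, on 19 and 27 expected counts. Cox4i1 exceeded it 613- and 612-fold. These near-equal ratios do not make the fold precise. The 95% interval of the Cox4i2 count ratio between libraries ran from -0.77 to 1.06 on the log2 scale. Cox6a2, typical of heart and skeletal muscle, had 3.73 and 6.47 TPM and was exceeded by Cox6a1 175- and 100.04-fold. The muscle form Cox7a1 had 5.21 and 7.64 TPM, and Cox7a2 exceeded it 46.1- and 35.9-fold. Cox8b, also typical of muscle and brown fat, had 2.32 and 3.44 TPM, and Cox8a exceeded it 195- and 145-fold. All 3 muscle forms were thus weakly present, and each was higher in replicate 2.

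Forms typical of testis ran from undetected to clearly present. Cox8c had no count in either library, so that Cox8a was at least 1775-fold higher in replicate 1 and at least 2638-fold higher in replicate 2, taking 3 counts in a library as the limit that a count of 0 allows. Cox7b2 had 1 count in replicate 1 and 0 in replicate 2, where Cox7b was at least 1472-fold higher. Cox6b2 (chr7:4751792-4753094, GRCm38) was at 61.0 and 73.1 TPM and made up 9.71 ± 0.54% of the Cox6b message (SD, n = 2), with Cox6b1 9.72- and 8.91-fold above it. The 6 male germ cell markers summed to 0.300 TPM in replicate 1 and 0.464 TPM in replicate 2, with Prm2 and Tnp1 at 0. No annotated gene overlapped Cox6b2.

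**Figure D2:**
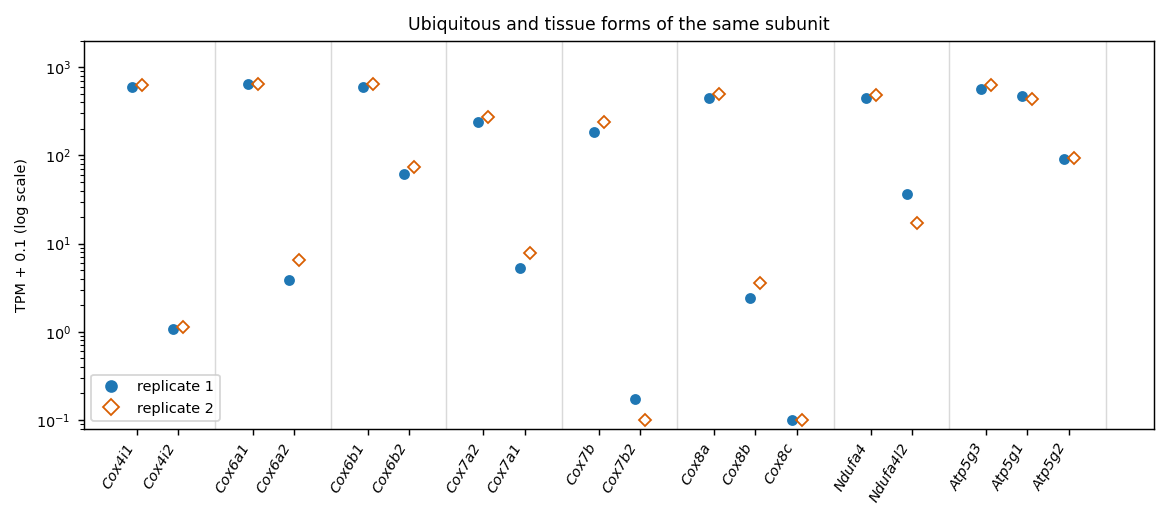
TPM + 0.1, on a log axis, of liver-type and other-tissue isoforms of complex IV, of Ndufa4 and Ndufa4l2, and of the 3 c ring genes; circles are replicate 1 and diamonds replicate 2, and 0 TPM plots at 0.1. Cox6b2 and Atp5g2 lie within about a factor of 10 of their partners, while Cox4i2, Cox6a2, Cox7a1 and Cox8b lie lower and Cox8c has no count.

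For the 3 muscle forms, markers of striated muscle were set beside them. The 12 striated muscle genes summed to 513 TPM in replicate 2 and 332 TPM in replicate 1, and of the 10 tested 6 were higher in replicate 2 past 1.5-fold, against 0.866% of all tested genes. Acta1, skeletal alpha actin, had 147 TPM in replicate 2 and 96.1 TPM in replicate 1, and the muscle creatine kinase Ckm 36.2 and 23.0 TPM. The median log2 ratio was 0.62 for the tested muscle genes, against 0.66 for Cox6a2, 0.48 for Cox7a1 and, in levels too low to be tested, 0.42 for Cox8b. Cox7a1 and Cox8b have short transcripts, of 364 and 362 nt, and all tested genes below 600 nt had a median log2 ratio of 0.19. The parts of muscle RNA and of length in these values were not tested. Of the 5 brown fat markers, Ppargc1a, which many tissues express, had 2.58 TPM in replicate 2 and 2.68 TPM in replicate 1 and supplied most of sums of 2.89 and 2.85 TPM. Cidea had 0.15 and 0.062 TPM, and Ucp1 was at 0.

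Several members have processed pseudogenes, intronless copies of their messages, and the reads of identical stretches cannot be assigned to the gene or its copy. Of the 85 members, 29 shared at least 1 stretch of 100 bases with a transcript of another gene, 15 of them with a processed pseudogene. The estimated counts of 54 members had a posterior SD of 0 in both libraries, and only Ndufb4, Atp5g1, Atp5l and Atp5g2 had one above 1% of the count. In 5 pairs the pseudogene held at least 500 expected counts in both libraries. The coding sequences of 4 of them matched their copies over every base, with 387 bases for Ndufb4, 438 for Atp5g2, 309 for Atp5l and 189 for Cox7c. Atp5g1 and its copy Gm10039 were identical at 407 of 408 bases.

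These stretches of 90 bases are shown because they are what reads from gene and copy share. The first pair comes from the start of the Atp5l coding sequence (gene at chr9:44912557-44920742, minus strand) and from Gm10221 (chr5:24581554-24581862, minus strand). The second comes from bases 296 to 385 of the Atp5g1 coding sequence (gene at chr11:96068852-96075670, minus strand) and of Gm10039 (chr11:100361716-100362126, minus strand). The single base at which that pair differs is in capitals, and all sequences are from the GENCODE M21 transcripts on GRCm38.
Atp5l: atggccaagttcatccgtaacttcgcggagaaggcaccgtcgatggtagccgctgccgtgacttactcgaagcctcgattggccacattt
Gm10221: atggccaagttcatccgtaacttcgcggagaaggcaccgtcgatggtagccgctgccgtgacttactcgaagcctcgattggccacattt
Atp5g1: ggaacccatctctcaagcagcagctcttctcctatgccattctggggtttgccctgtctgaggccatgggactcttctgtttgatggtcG
Gm10039: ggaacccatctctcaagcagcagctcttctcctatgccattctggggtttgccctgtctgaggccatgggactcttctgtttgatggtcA
The Atp5l stretch is the same, base for base, in its copy, and the Atp5g1 pair is told apart by its last base alone.

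More TPM was assigned to the copy than to the gene in 3 of the 5 pairs in both libraries. Atp5l had 94.1 and 108 TPM in replicates 1 and 2, while Gm10221 had 391 and 483 TPM, or 80.6% and 81.7% of the pair. Ndufb4 had 19.0 and 26.2 TPM and Ndufb4c 160 and 193 TPM, or 89.4% and 88.0%. Atp5g2 had 90.8 and 92.5 TPM and Gm10175 95.9 and 119 TPM, or 51.4% and 56.4%. For Cox7c, a complex IV subunit, gene and copy Gm12338 stood about level in TPM, with 49.5% and 49.9% in the copy, but the copy held only 17.5% and 17.7% of the counts. Gm10039 held 18.2% and 23.1% of the pair with Atp5g1. Gene and copy together gave 538 ± 75.7 TPM for Atp5l and 199 ± 28.3 TPM for Ndufb4 (SD, n = 2). Both sums were above the median gene of the complex, but they add TPM computed over unlike lengths. Gm10221 has 309 bases and Ndufb4c 390, against 511 nt for Atp5l and 926 and 807 nt for Ndufb4 in replicates 1 and 2. Over the length of the gene each sum would be lower, and whether it would stay above the median was not tested. How much of each sum came from the gene was not tested.

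**Figure D3:**
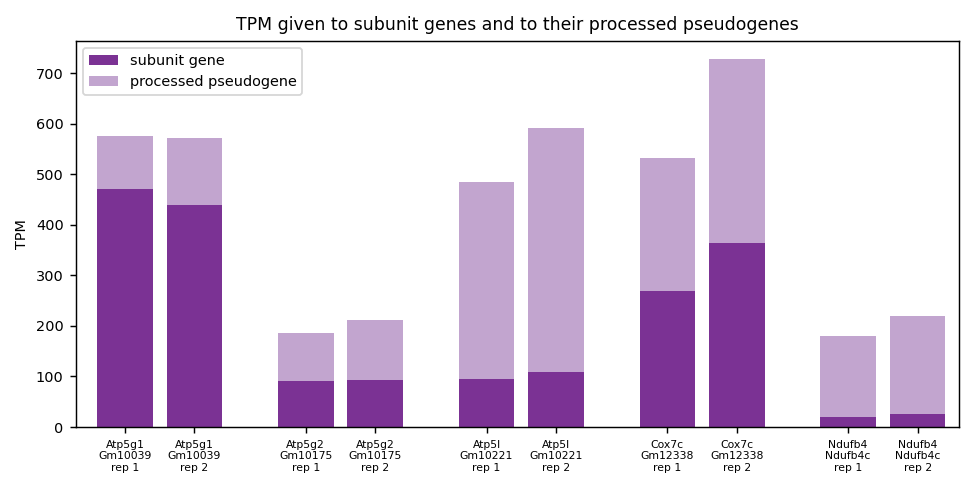
TPM assigned to 5 members (dark) and to their processed pseudogenes (light), stacked in 1 bar per library that starts at 0. For Atp5l and Ndufb4 the light share is over 80% in both libraries, while for Atp5g1 it is 18.2% and 23.1%.

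Most members were read mainly from 1 transcript. Of the 85, 28 had a single annotated transcript. Of the 56 with more than 1 transcript and at least 5 TPM in both libraries, 55 had the same leading transcript in both, the exception being Ndufb5. The median share of the leader was 90.3%, and it was at 90% or more in 29. The leader was annotated as protein-coding in 51 of the 56. In 13 members the leading 2 transcripts each held 20% or more.

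Among those, the highest was Atp5b, with 63.5% in Atp5b-201 and 31.7% in Atp5b-206, which is annotated as a processed transcript without a coding sequence. Cox5b-205, also a processed transcript, held 53.4% of Cox5b and the coding Cox5b-204 42.7%. In Ndufc1 the retained-intron transcript Ndufc1-203 held 38.0% and the coding Ndufc1-204 49.8%, and in Ndufab1 a retained-intron form, Ndufab1-205, held 32.0% against 45.6% for Ndufab1-206. For Atp5f1, a peripheral stalk subunit, Atp5f1-203, annotated as subject to nonsense-mediated decay, held 67.6% and the coding Atp5f1-201 31.1%. Uqcrq was split between Uqcrq-203 with 65.5% and Uqcrq-204 with 29.4%. These shares are estimates that divide reads between overlapping transcripts.

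Splice forms known to differ between tissues were read in 2 genes. Ndufv3, an accessory subunit of the NADH-binding module, has a long form with an additional exon of 1092 bases (chr17:31527310-31528401, GRCm38). The short Ndufv3-202 held 93.0 ± 0.19% of the gene and the long Ndufv3-201 6.58% (SD, n = 2). In Atp5c1 an exon of 37 bases (chr2:10056770-10056806) is skipped in muscle. Atp5c1-203, which holds it, made up 89.5 ± 4.58%, and Atp5c1-201, which lacks it, 13.6% in replicate 1 and 6.74% in replicate 2. The share of the form without the exon was thus lower in replicate 2, the library with more striated muscle marker RNA, and the part of muscle RNA in these shares was not tested.

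**Figure D4:**
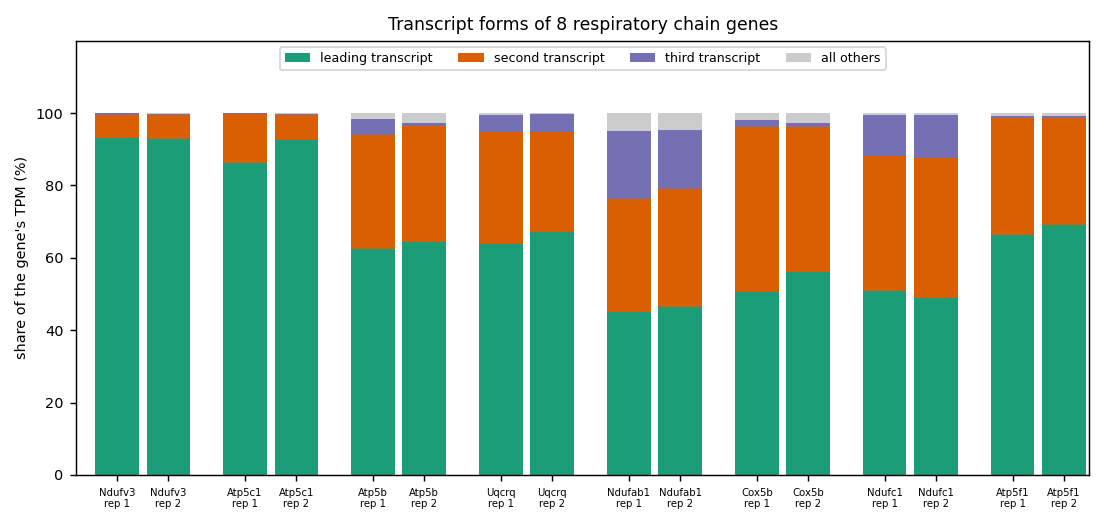
Share of each gene's TPM in its leading transcripts and all others, in percent, stacked in 1 bar per library, for Ndufv3, Atp5c1 and the 6 most abundant members with a split between transcripts. Ndufv3 and Atp5c1 are led by 1 transcript, while the other 6 have a second transcript at 20% or more.

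Regulation of these genes is known to involve the factors NRF1, GABPA of the ETS family, and YY1. The genes of all 3 were expressed: Nrf1 had 37.0 and 36.3 TPM in replicates 1 and 2, Gabpa 14.3 and 13.9 TPM and Yy1 10.6 and 10.8 TPM. The coactivator gene Ppargc1a was low, with 2.68 and 2.58 TPM. RefSeq promoters on GRCm38.p6, from 250 bases before to 50 bases after the gene start, matched 67 of the 85 members. Among those with no match were Ndufb9, Ndufa2, Ndufs1, Ndufa4l2, Sdhc, Uqcrq, Uqcrb, Uqcrc2, Cox4i1, Cox6c, Cox6a2, Cox4i2, Cox8c, Atp5a1, Atp5mpl, Atp5f1 and Atp5s. A motif was searched as exact letters on both strands.

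The NRF1 palindrome, which reads the same on both strands, was found in 5 of the 67 (7.46%: Ndufa11, Uqcrc1, Cox6a1, Atp5k and Atp5g2), against 1.07% of 27025 genes and 1.47% of 17492 protein-coding genes. The YY1 motif AAGATGGC was found in 9 (13.4%: Ndufa3, Ndufa9, Ndufb8, Ndufc1, Ndufs4, Ndufs6, Ndufs7, Atp5j and Atp5j2), against 3.19% and 3.57%. The ETS motif CCGGAAGT was found in 5 (7.46%: Ndufs3, Uqcrh, Uqcr11, Cox8a and Atp5h), against 4.31% and 5.69%. The 3 motifs do not contain each other, and 19 members held 1 of them and 0 held more than 1. A promoter with each motif is shown, since the members' share with that motif is set beside that of all genes here, with the motif in capitals. Uqcrc1 lies at chr9:108936398-108936697 on the plus strand, Ndufs7 at chr10:80249199-80249498 on the plus strand and Cox8a at chr19:7217567-7217866 on the minus strand. In Cox8a the capitals are the ETS motif read from the opposite strand, at 2 places.
Uqcrc1: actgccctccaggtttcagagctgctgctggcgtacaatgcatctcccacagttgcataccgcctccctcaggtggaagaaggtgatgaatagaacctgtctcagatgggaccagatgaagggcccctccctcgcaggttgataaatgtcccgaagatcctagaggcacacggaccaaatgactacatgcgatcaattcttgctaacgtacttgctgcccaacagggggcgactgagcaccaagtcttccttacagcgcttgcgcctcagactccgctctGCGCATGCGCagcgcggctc
Ndufs7: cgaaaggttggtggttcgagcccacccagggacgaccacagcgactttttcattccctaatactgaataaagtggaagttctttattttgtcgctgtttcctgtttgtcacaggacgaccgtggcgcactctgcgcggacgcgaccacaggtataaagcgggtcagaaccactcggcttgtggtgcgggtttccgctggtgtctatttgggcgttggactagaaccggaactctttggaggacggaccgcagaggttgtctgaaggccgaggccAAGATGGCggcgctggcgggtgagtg
Cox8a: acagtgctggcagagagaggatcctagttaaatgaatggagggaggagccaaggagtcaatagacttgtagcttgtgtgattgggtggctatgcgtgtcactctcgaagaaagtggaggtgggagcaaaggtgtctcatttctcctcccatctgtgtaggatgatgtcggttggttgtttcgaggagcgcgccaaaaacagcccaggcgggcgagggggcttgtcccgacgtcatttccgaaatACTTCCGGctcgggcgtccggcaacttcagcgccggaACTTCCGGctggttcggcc
In Uqcrc1 and Ndufs7 the motif lies after the annotated gene start, by 31 and 25 bases. A match is a description of letters in this window and says nothing of binding.

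Between the libraries, few members differed by much. Of 81 members that reached 5 TPM in at least 1 library, 2 differed past 1.5-fold on the log2(TPM + 1) scale, while 1.83% of all 8781 genes at that level did. Cox6a2 was the 1 higher in replicate 2 (0.866% of all genes) and Ndufa4l2 the 1 lower (0.968%). Past 2-fold stood Ndufa4l2 alone, beside 0.672% of all genes in either direction, 0.41% lower and 0.262% higher in replicate 2. Within 0.25 on the log2 scale were 65 of the 81 members. The exact 95% interval of the count ratio excluded equal shares for 64 of the 81, an interval that covers counting error only. The shares of all genes that meet these 2 limits were not computed, so neither count is read as particular to the members.

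Ndufa4l2, a relative of Ndufa4 known to be induced by hypoxia and to be abundant in pericytes (chr10:127514967-127517154, GRCm38), had 16.9 TPM in replicate 2 and 36.5 TPM in replicate 1. Its expected counts were 612 and 980. The log2 ratio of TPM + 1 was -1.07, with an interval of the count ratio from -1.20 to -0.91. Ndufa4 exceeded it 28.8-fold in replicate 2 and 12.3-fold in replicate 1. The 7 markers of pericytes and vascular smooth muscle summed to 27.2 TPM in replicate 2 and 30.6 TPM in replicate 1. Most of this was Acta2, with 20.6 and 23.4 TPM, and Pdgfrb had 2.56 and 2.76 TPM. Higd1b had 0.062 and 0.17 TPM on 1 and 2 counts. Rgs5, with 0.20 and 0.093 TPM on 33 and 12 counts, was the only marker higher in replicate 2. The part of these cells in the difference was not tested. The gene overlaps Shmt2 by 32 bases on the opposite strand, which stood at 114 TPM in replicate 2 and 133 TPM in replicate 1. Cox6a2, at 6.47 TPM in replicate 2 and 3.73 TPM in replicate 1, rested on 152 and 65 expected counts, and its log2 ratio of 0.66 had an interval of the count ratio from 0.42 to 1.29.

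As a group the members leaned to replicate 2. Higher there were 61 of the 81 tested, or 75.3%, and 20 were lower, while 39.2% of all genes were higher. The median log2 ratio was 0.10 for the members and -0.04 for all genes. By complex it was 0.19 for complex IV, 0.10 for V, 0.09 for I, 0.06 for III and -0.10 for II. After Cox6a2, the members furthest toward replicate 2 were Cox7a1 with a log2 ratio of 0.48, Atp5k with 0.48, Ndufb4 with 0.44 and Cox7c with 0.44. Atp5k, a small membrane subunit of complex V, had 200.0 TPM in replicate 2 and 144 TPM in replicate 1.

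Transcript length moved with this difference. The members' median length was 682 nt, against 2104 nt over all tested genes. The median log2 ratio was 0.15 for the 34 members shorter than 600 nt, 0.05 for the 26 members from 600 to 1000 nt and 0.03 for the 21 longer ones. Over all genes it was 0.19, 0.06 and -0.06 in the same classes, with 467, 825 and 7489 genes. Across genes, which are not independent replicates and share both libraries, the rank correlation (Spearman's rho) of the log2 ratio with length was -0.45 over 81 members and -0.25 over 8781 genes. With the median of all genes at each length subtracted, the members' median became 0.02 and Ndufa4l2 was the 1 member left past 1.5-fold.

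**Figure D5:**
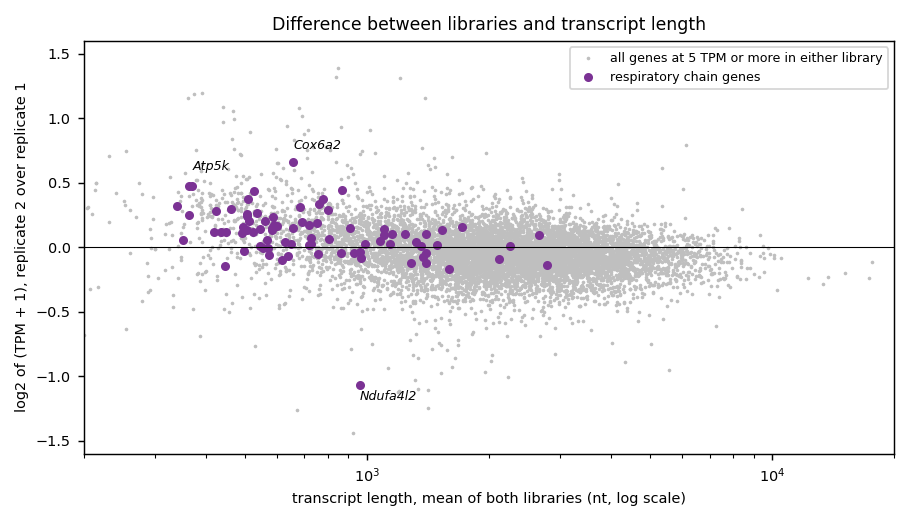
Log2 ratio of TPM + 1, replicate 2 over replicate 1, against transcript length in nt on a log axis, for members (purple) and for all genes that reached 5 TPM in either library (grey). 79 of the 8781 genes fall outside the plotted range. Most members lie among the shorter transcripts and above 0, with Ndufa4l2 lowest at -1.07.

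Other genes of the pathway were set beside the members. A list of assembly factors had 54 measured genes, most of which help to build the complexes and are absent from the finished ones. They summed to 1420 ± 77.9 TPM, and the median was 18.3 and 19.9 TPM in replicates 1 and 2. The 2 that reached 100 TPM in both libraries were Uqcc2, needed for complex III, with 124.6 and 134.7 TPM, and Cox17, a copper chaperone for complex IV, with 187 and 236 TPM. Of the 45 tested, 0 differed past 1.5-fold, beside 1.83% of all genes, so that the count is near that share. Of 5 measured genes listed with symbols outside the rule, 3 reached 100 TPM in both libraries. Cyc1, cytochrome c1 of complex III, had 270 and 247 TPM in replicates 1 and 2, and Usmg5, a small subunit of complex V, 507 and 684 TPM. Lower were Higd2a with 87.4 and 98.4 TPM and Higd1a with 31.9 and 32.7 TPM. Atpif1, the inhibitor of ATP synthase running in reverse, had 920 and 1092 TPM, above every member except Atp5b.

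Cytochrome c itself was less abundant, with Cycs at 30.5 and 33.7 TPM in replicates 1 and 2 and the testis form Cyct at 0.062 and 0.041 TPM. Shared sequence was searched for the members only, so whether Cycs reads were assigned to processed copies was not tested. The 11 coenzyme Q synthesis genes summed to 243 ± 7.93 TPM and the 13 transcription regulators to 197 ± 0.521 TPM (SD, n = 2), and 0 of the tested genes of either list differed past 1.5-fold, which with so few genes is near the share over all genes. Of the inhibitors and carriers, the uncoupling protein gene Ucp2 had 770 and 733 TPM and the ATP/ADP carrier gene Slc25a5 379 and 401 TPM. The 13 subunits encoded by mitochondrial DNA summed to 15765 and 17512 TPM. Their median stood above that of the nuclear genes of the same complex. It did so 2.11- and 2.13-fold for complex I (7 mitochondrial genes), 4.20- and 4.71-fold for IV (3 genes) and 11.9- and 11.9-fold for V (2 genes). For III, where mt-Cytb is the 1 such gene, the ratio was 5.04 and 5.07. mt-Nd4l was the 1 of the 13 past 1.5-fold, beside 1.83% of all genes, with 12.6 TPM in replicate 2 and 52.6 TPM in replicate 1. Its expected counts were 104.86 and 324.53, while mt-Nd4 had 652 TPM in replicate 2 and 643 TPM in replicate 1. How reads were divided between mitochondrial genes was not tested.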

How the data were processed

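RNA longer than 200 nt was measured in 2 libraries of 1 group. Per the file headers, each gene and transcript table holds expected counts, TPM and posterior estimates under the column names that RSEM writes. The deposited expected counts are the authors' unscaled estimates of reads per gene or transcript, spike-ins included. The deposited TPM are the authors' abundances per effective length and library total. Companion descriptions give the mm10 assembly and annotation M4. Which aligner and quantifier were run is not given in the sources used here. Effective lengths were mostly 99 nt below full lengths, which raises the TPM of very short features.

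Spike-ins and numeric entries were left out and TPM rescaled to 1000000. GENCODE M21, on the same assembly (GRCm38), gave symbols, biotypes and coordinates. Members are the rows matching the symbol rule. Values of 1 member are not reported here, though it is kept in the counts and sums. The members and lists were chosen with earlier results of these data known. Named genes were, per complex, the 4 highest, the lowest and the gene that differed most between libraries, with every isoform pair and every member below 1 TPM. Genes tied to pseudogenes, transcripts, motifs or role groups were named too, some after their values were seen.

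Replicate 2 was set against replicate 1 as the log2 ratio of TPM + 1, for genes that reached 5 TPM in at least 1 library, with exact (Clopper-Pearson) 95% intervals of the count ratio. With 1 library on each side, no test across genes was made. A count of 0 was taken to allow 3 counts. Both cover counting error only, because 1 library on each side gives no spread between samples. They treat each count as independent, so PCR copies of 1 molecule, where counted separately, would add error that they leave out. Replicates 1 and 2 held 34820426 and 45117192 expected counts, and the median member 3828 and 5431. Shared sequence was searched as exact windows of 100 bases in either strand. The counting rule for strand is not given in the sources used here. Of the members, 34 overlap another gene, and for 14 the other gene reached 5 TPM in both. Alternatives used TMM factors (edgeR 4.0.16), median-of-ratios factors (DESeq2 1.42.0), spike-ins, other filters, pseudocounts and lengths, and each library alone. Software was R 4.3.3 and Python 3.11.15 with SciPy 1.17.1, pandas 2.3.3, matplotlib 3.10.9, NumPy 2.4.6 and Biopython 1.88.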

Additional observations from a re-analysis of the deposited data

How the results depend on the processing

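No paired analysis was possible because both libraries belong to 1 group. The members' share of TPM (2.10%) became 3.41% with the adult globins left out of the total, 1.38% of expected counts and 2.21% with 5 pseudogenes added to their parents, and lay between 2.03% and 2.16% with 1 library left out. The median subunit level became 177 TPM for complex II with full in place of effective length, 291 TPM for III with Cyc1 and Usmg5 added, 257 TPM for IV over members at 1 TPM or more in both libraries and 394 TPM for V with pseudogenes added. With 1 library left out it lay between 136 and 148 TPM for complex I, 161 and 166 TPM for II, 309 and 320 TPM for III, 199 and 242 TPM for IV, and 306 and 352 TPM for V. Complex III stood above V with full length (319 and 316 TPM) and in replicate 1 alone. The members' median log2 ratio (0.10) became 0.16 with TMM, 0.17 with median-of-ratios and 0.29 with spike-in scaling, which moved the median of all genes to 0.14, and 0.017 with the length trend removed. It was above 0 under each of the 9 alternatives run. Members past 1.5-fold (2) became 4 with spike-in scaling, where Atp5k and Cox7c joined, 1 at 10 TPM or more in both libraries and 1 with the length trend removed. Fewer genes enter under the higher limit, and for the other changes the cause was not tested. Of 40 values of isoform ratios, 34 stayed within the spread between libraries and 6 moved, 5 of them when expected counts replaced TPM, and 0 turned round. The values with 1 library left out are among the 34 by construction. With 2 libraries, each lies within their SD of the mean, so these values say nothing of stability. The pseudogene, Cyc1 and Usmg5, and length-trend alternatives were chosen after seeing the data. Depth limits Cox6a2, Cox7a1, Cox8b, Cox4i2, Cox7b2 and Cox8c most.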

Other observations

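Beside Ndufa4l2, 13 genes known to respond to hypoxia were read, a list chosen after the values were seen. They summed to 1732 TPM in replicate 2 and 2195 TPM in replicate 1, mostly from the lactate dehydrogenase gene Ldha, with 1193 TPM in replicate 2 and 1586 TPM in replicate 1. Of the 9 that reached 5 TPM in at least 1 library, 7 were lower and 2 higher in replicate 2, and 0 differed past 1.5-fold. Higher in replicate 2 were thus 22.2% of the 9, against 39.2% of all genes. The 0 past 1.5-fold is, with so few genes, near the 1.83% of all genes. The median log2 ratio of the 9 was -0.18, against -0.04 for all genes, -1.07 for Ndufa4l2 and -0.33 for the 6 hepatocyte markers.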
